A study of Arabidopsis thaliana with 9 samples.

Results

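Transcript levels were compared between epcr1/2 mutant and wild-type Arabidopsis thaliana seedlings, 3 libraries of each, out of 9 libraries of 3 genotypes in the series. The labels give the mutant as epcr1-/-epcr2-/- and the controls as wild type (WT). The remaining 3 libraries were of the arid2/3/4 mutant, and the labels name no treatment for any genotype. Seedlings of all groups were 10 days old and grew on MS plates at 22 °C with 16 h of light and 8 h of dark, and the tissue label is seedlings, with no organ named. Nuclear genes that reached 0.5 FPKM in 3 or more of all 9 libraries were taken, which gave 21168 of 27839. FPKM, fragments per kilobase of transcript scaled to the mapped fragments of the library, is a level that allows for gene length. The labels do not say which mutant alleles were used, or whether replicates were separate sowings, so p-values cover only how these samples vary, and that variation may be technical.

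PEAT complexes are named for PWWP proteins, EPCRs, ARIDs and telomere repeat binding factors, and the series title links them to histone deacetylation and silencing of heterochromatin. EPCR1 and EPCR2 are plant members of the Enhancer of Polycomb family. In yeast and animals such proteins form part of the NuA4 histone acetyltransferase, which loosens chromatin by acetylating histone tails. Histone deacetylases remove these marks, and genes of the embryo, the meristem and stress responses are among those kept low in seedlings by chromatin.

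Replicates 1 and 2 of each genotype were nearly alike (Pearson r of 0.994 across genes in both), and they may share plants. Replicate 3 stood apart from both in WT and in epcr1/2 (r of 0.876 to 0.883), so n = 3 may overstate the number of independent samples. The approximate depth, read from the steps of the smallest values, was 19.8 to 28.5 M fragments in replicates 1 and 2 and 54.1 to 54.4 M in replicate 3. Between 22490 and 24022 genes had a value above 0. The 18 chlorophyll synthesis genes and 15 of 16 root hair genes passed the level filter, so leaf and root transcripts were both present, while 0 of 13 pollen and tapetum genes did.

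EPCR1 (AT4G32620, chr4:15731443-15737807, plus strand, TAIR10.1) was at 11.8, 10.5 and 16.4 FPKM in WT and 0.344, 0.514 and 1.08 FPKM in epcr1/2. Every mutant library lay below every WT library (log2 fold change -3.08 ± 0.24 SE, limma adjusted p = 0.00019). EPCR2 (AT5G04670, chr5:1335873-1341534, minus strand) was at 8.36, 6.99 and 11.8 FPKM in the WT libraries, against 10.1, 10.4 and 12 in the mutant. The annotation gives neither locus a symbol, and both were identified from knowledge of the published gene names. The 2 groups overlapped for EPCR2, with no change called (log2 fold change 0.27 ± 0.25 SE, limma adjusted p = 0.474), and a transcript level does not show whether the product is functional.

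By limma, 6039 of 21168 genes (28.5%) differed between epcr1/2 and WT at an adjusted p under 0.05, 2277 higher (10.8%) and 3762 lower (17.8%) in the mutant. At a difference of 2-fold or more, 1386 were higher (6.55%) and 2177 lower (10.3%). The 3 mutant libraries all lay above the 3 WT libraries in 3902 genes (18.4%) and all below in 5956 (28.1%). Fitting the replicate number as a block gave 4088 higher (19.3%) and 6744 lower (31.9%), and all 6039 genes were among them. Each replicate number holds every genotype, so the block leaves each fold change as it was and is no independent check. It also counts replicates 1 and 2 as separate samples, so its larger counts, here and for the lists below, may be too high. Another fit averaged replicates 1 and 2 of each genotype into 1 sample and blocked that mean against replicate 3 (named the averaged fit from here on). It called 1676 higher and 3138 lower, and 1413 of the 2277 higher and 2568 of the 3762 lower genes passed in it. The median log2 fold change of all tested genes was -0.12, and centring each library on its median moved it to 0.06. After centring, 50.7% of the calls were higher and 49.3% lower, in place of 37.7% and 62.3%, and quantile normalization gave 46.7% and 53.3%. Without epcr1/2 replicate 1, 1445 genes were higher and 2286 lower. Without epcr1/2 replicate 2 the counts were 1449 and 2259, without WT replicate 1 they were 1484 and 2464, and without WT replicate 2 they were 1474 and 2711.

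Replicate 3 gave the same direction as replicates 1 and 2 for nearly all genes that passed. Of the 2277 higher genes 2270 were also higher in replicate 3, and of the 3762 lower genes 3753 were also lower there. Agreement in sign among genes that passed is partly built into the test, because all 3 replicates entered it. Among all 21168 genes the sign was the same in 16704 (78.9%). The differences were somewhat smaller in replicate 3, with a median of 1.05 against 1.24 (log2) for the higher genes and -0.95 against -1.18 for the lower genes. At a log2 difference of 1 or more in both, 2794 genes had the same sign and 85 had opposite signs.

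**Figure D1:**
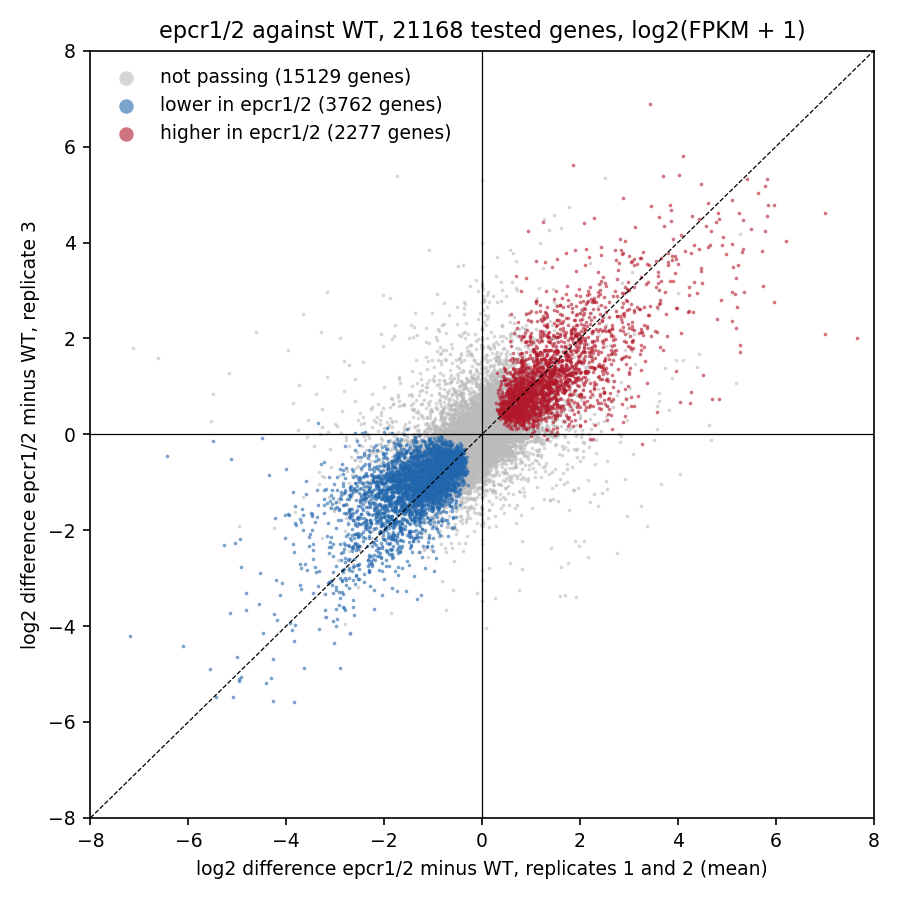
Each point is 1 of the 21168 tested genes, with the log2 difference between epcr1/2 and WT in the mean of replicates 1 and 2 on the x axis and in replicate 3 on the y axis, on the log2(FPKM + 1) scale. The 2277 genes that passed as higher (red) lie almost all in the upper right and the 3762 that passed as lower (blue) in the lower left, around the dashed line of equal differences, while grey genes off the diagonal did not pass.

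Gene lists, chosen with earlier results of these data known, were counted next. They were read against the 10.8% of all tested genes that were higher and the 17.8% that were lower. Because of that choice, the order of their shares is partly built in. The widest shares of higher members were in late embryogenesis (76.9%), heat shock (70.0%), seed storage and oil body (61.5%), flavonoid (58.8%), phenylpropanoid (57.9%) and shoot meristem and boundary genes (55.6%). The widest shares of lower members were in root hair (93.3%), Rubisco and Calvin cycle (64.3%), light harvesting and photosystem (59.4%), chlorophyll synthesis (55.6%) and endodermis genes (55.6%). Lists with shares near the background, such as cell cycle genes (3 higher and 2 lower of 27), are not a result about their members. The background also depended on the WT level. Of 945 tested genes with a WT mean under 0.5 FPKM, 41.1% were higher and 0.212% lower. At 10 to 50 FPKM these shares were 7.08% and 18.0%. Genes that low in WT met the level filter mainly through mutant libraries, so a fall could hardly be called for them. Examples below are CRA1, OLEO2, SESA1, EM1, ABI3, CUC1, CLV3, AP1, DRM1, AT1G68250 and SK9.

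**Figure D2:**
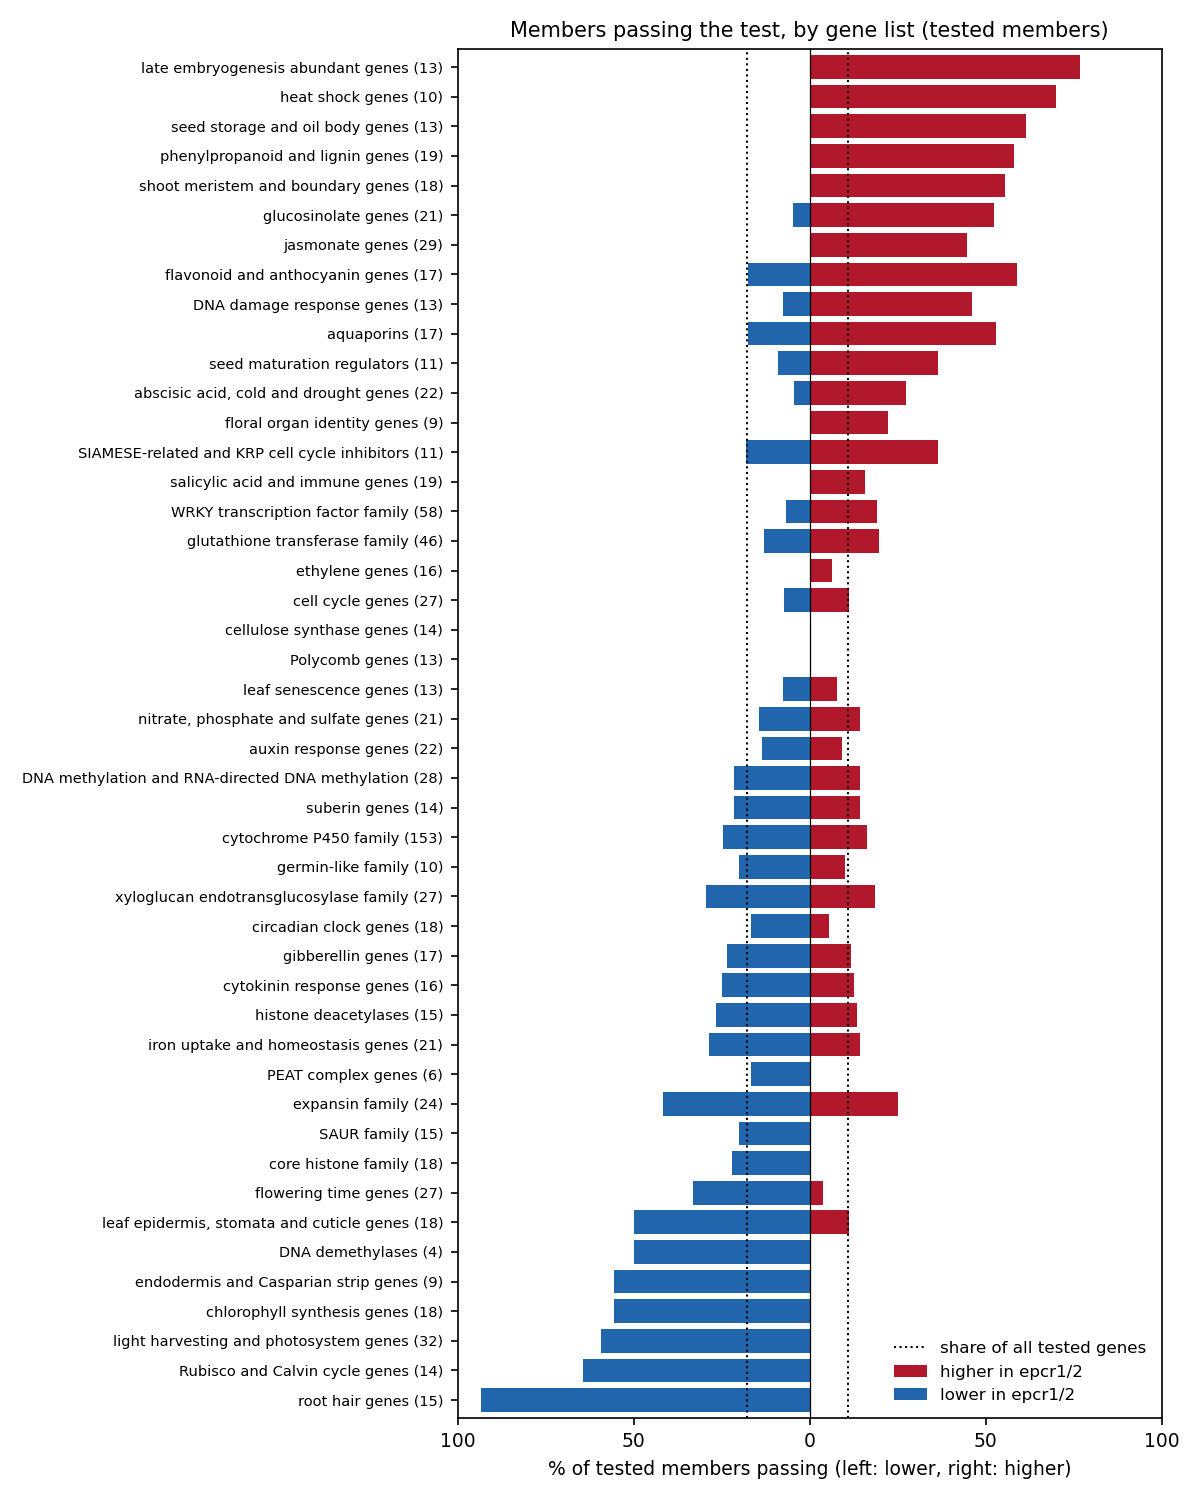
Bars give the percent of the tested members of each gene list (number tested in brackets) that passed as higher in epcr1/2 (red, right) or lower (blue, left), limma adjusted p under 0.05. Dotted lines mark the share of all tested genes, 10.8% higher and 17.8% lower. The bar for root hair genes reaches 93.3% on the lower side and that for late embryogenesis genes 76.9% on the higher side.

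Embryo and seed genes that were close to 0 in WT seedlings were clearly above it in the mutant. CRA1 encodes a cruciferin, a 12S storage globulin, and was at 88.7, 75.8 and 37 FPKM in epcr1/2, where WT had 0.355, 0.521 and 0.37. OLEO2 encodes an oleosin that coats seed oil bodies, and was at 0.288, 0.133 and 0.124 FPKM in WT and 52.4, 42.4 and 23.7 FPKM in epcr1/2. In both genes all mutant libraries lay above all WT libraries, with replicate 3 the lowest of the 3 (log2 fold change 5.5 ± 1.09 SE, limma adjusted p = 0.00765 for CRA1, and log2 fold change 5.03 ± 0.69 SE, limma adjusted p = 0.00153 for OLEO2). Genes this low in WT could hardly be called lower, and 41.1% of all 945 tested genes under 0.5 FPKM in WT were higher. Of 13 storage protein and oil body genes 8 rose, 0 fell and 5 did not pass, with a median log2 fold change of 4.53. The count was 4 without any 1 of WT replicates 1, 2 and 3 or of epcr1/2 replicates 1 and 2, and 4 in the averaged fit, while OLEO1 (4.53 ± 0.92), OLEO2, OLEO4 (2.61 ± 0.24) and CRA1 passed in all of these. The albumin gene SESA1 was at 0.0952, 0.544 and 0.0999 FPKM in the WT libraries, against 77.9, 67.6 and 43.3 in the mutant, and its call ended in 7 of 16 alternative fits. The list summed to 6.43, 7.14 and 4.68 FPKM in WT replicates 1, 2 and 3 and 519, 449 and 239 in epcr1/2.

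RY elements, with the core CATGCA, are the sites that B3 domain regulators of seed maturation such as ABI3 and FUS3 bind. The 250 bases upstream of 3 seed genes that rose are shown, since this core recurs in the group. They are given 5′ to 3′ on the gene's strand from the TAIR10.1 genome with RefSeq gene starts, and capitals mark the core on either strand.
CRA1 (chr5:17758337-17758586, minus strand): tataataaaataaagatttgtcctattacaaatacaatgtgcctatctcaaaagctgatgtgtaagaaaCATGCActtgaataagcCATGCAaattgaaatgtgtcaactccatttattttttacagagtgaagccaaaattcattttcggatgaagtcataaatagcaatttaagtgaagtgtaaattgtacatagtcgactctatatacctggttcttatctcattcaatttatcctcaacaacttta
OLEO4 (chr3:10242994-10243243, plus strand): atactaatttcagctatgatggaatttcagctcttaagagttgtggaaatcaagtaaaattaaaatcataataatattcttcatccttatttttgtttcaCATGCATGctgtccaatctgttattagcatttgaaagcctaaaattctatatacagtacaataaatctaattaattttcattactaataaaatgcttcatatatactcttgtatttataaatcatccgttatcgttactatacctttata
OLEO1 (chr4:12900180-12900429, plus strand): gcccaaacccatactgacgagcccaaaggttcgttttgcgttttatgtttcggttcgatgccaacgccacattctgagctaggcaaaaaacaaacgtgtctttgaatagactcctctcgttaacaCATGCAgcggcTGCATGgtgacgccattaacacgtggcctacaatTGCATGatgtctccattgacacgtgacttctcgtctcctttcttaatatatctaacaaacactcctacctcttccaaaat

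In a window from 250 bases before to 50 after the start, CATGCA on either strand was present in 12 of the 13 storage and oil body genes (92.3%), in 4 of the 13 late embryogenesis genes (30.8%), in 9.04% of all tested genes and in 10.4% of all 37897 promoters of the annotation. Among genes higher by 2-fold or more it was in 15.7%, and among genes lower by as much in 12.2%. ACGTGG, the core of the abscisic acid response element, was in 13.5% of the 2-fold higher and 11.5% of the lower genes, against 10.9% of those tested. CACGTG, the G-box, with which it can overlap, was in 12.6% and 7.95%, against 8.85%. The telo-box AAACCCTA, a sequence that telomere repeat binding factors recognise, was in 5.19% of the higher and 4.27% of the lower genes, against 5.57%. The heat shock element unit GAANNTTC was in 11.2% and 9.14%, against 11.3%, and in 6 of the 10 heat shock genes (60.0%). The evening element core AAATATCT was in 5.27% and 7.21%, against 5.8%, and the W-box (TTGACC or TTGACT) in 31.0% and 30.7%, against 32.6%. Both strands were searched for each, and a match is a description of the letters, not of binding.

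Late embryogenesis abundant (LEA) proteins protect drying seeds. LEA18 was at 148, 110.5 and 54.2 FPKM in epcr1/2, where WT had 0.953, 0.541 and 2.35, and EM1, which encodes an early methionine-labelled protein of the mature embryo, at 0.115, 0.199 and 0.526 FPKM in WT and 48.7, 36.5 and 16.6 FPKM in epcr1/2. No WT library reached any mutant library for either (log2 fold change 5.49 ± 0.51 SE, limma adjusted p = 0.000347 and log2 fold change 4.66 ± 0.38 SE, limma adjusted p = 0.000227). Of 13 such genes 10 rose, 0 fell and 3 did not pass, with a median of 3.05, and the lowest count on leaving out 1 library was 8. PER1, a peroxiredoxin gene of dormant seeds, rose by 4.37 and M17 by 4.84 on the log2 scale. On the log2(FPKM + 1) scale, which understates changes of low genes, AT3G02480 rose most among called genes whose libraries did not overlap. This gene, also of the LEA family, went from 7.14, 5.5 and 13.2 FPKM in WT to 1059, 828 and 346 FPKM in epcr1/2 (log2 fold change 6.21 ± 0.79 SE, limma adjusted p = 0.00113). Of 11 regulators of seed maturation 4 rose, 1 fell and 6 did not pass. ABI3, a B3 activator of storage genes, was below 0.06 FPKM in every WT library and at 0.891, 0.688 and 0.537 FPKM in epcr1/2 (log2 fold change 0.71 ± 0.11 SE, limma adjusted p = 0.00288), and AGL15, a MADS gene of the embryo, rose by 1.69. Without epcr1/2 replicate 1 or 2, 2 regulators rose.

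Many genes of the shoot apical meristem and organ boundaries rose. These genes are normally restricted to the dividing tip of the shoot and to the creases between organs. In bulk seedling RNA more cells of these kinds and more RNA per cell cannot be told apart. CUC1, a boundary NAC factor, was at 0.556, 0.471 and 0.173 FPKM in the WT libraries, against 12, 13.1 and 6.38 in the mutant. STM, the KNOX homeobox gene that keeps meristem cells undifferentiated, was at 38.9, 37.8 and 19.4 FPKM in epcr1/2, where WT had 3.38, 4.25 and 2.09. CLV3, whose peptide limits the stem cell pool, was at 0, 0.276 and 0.0533 FPKM in WT and 8.04, 9.14 and 3.09 FPKM in epcr1/2. For these 3 genes every mutant library stood above every WT library, with replicate 3 the lowest mutant library (log2 fold change 2.99 ± 0.27 SE, limma adjusted p = 0.000293, log2 fold change 2.93 ± 0.3 SE, limma adjusted p = 0.00049, and log2 fold change 2.71 ± 0.32 SE, limma adjusted p = 0.00085). Of 18 genes 10 rose, 0 fell and 8 did not pass, with a median of 1.19, and the count did not move by over 1.5 times on leaving out any 1 library. The WT means of CUC1 and CLV3 were under 0.5 FPKM, so a fall could hardly be called for them. Of all 945 tested genes that low in WT, 41.1% were higher. LOB rose by 2.34, KNAT6 by 1.94, CUC3 by 1.91, CUC2 by 1.8 and KNAT2 by 1.06, and WUS, which specifies stem cells, by 1.32. WUS did not pass in the averaged fit. AS1 (0.01 ± 0.18) and AS2 (0.39 ± 0.18), which repress KNOX genes in leaves, did not pass. CYP78A5, a cytochrome P450 gene of organ boundaries, rose by 2.69.

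Among the floral genes, AP1, which specifies sepals and petals, was at 0.0345, 0 and 0.0812 FPKM in the WT libraries, against 0.844, 0.631 and 0.648 in the mutant (log2 fold change 0.72 ± 0.1 SE, limma adjusted p = 0.0019). It was 1 of 2 that rose among 9 tested floral organ identity genes, and SEP3 (1.23 ± 0.35) was the other, losing its call without epcr1/2 replicate 1, 2 or 3, with only these 2 genotypes fitted, and in the averaged fit. The 27 flowering time genes included 9 that fell and 1 that rose, the block gave 15 and 3, and the averaged fit 7 and 1. SVP, a MADS repressor of flowering, was at 20.2, 18.2 and 16.9 FPKM in epcr1/2, where WT had 49, 48.4 and 45.7, and FLM, with which it acts, at 29.3, 28.3 and 27.4 FPKM in WT and 11.3, 9.94 and 14.1 FPKM in epcr1/2 (log2 fold change -1.33 ± 0.17 SE, limma adjusted p = 0.00122 and log2 fold change -1.21 ± 0.18 SE, limma adjusted p = 0.00234). MAF3 fell by 1.44, MAF5 by 0.78 and SPL9, a regulator of the juvenile to adult transition, by 0.96. FLC, the vernalisation gene, missed the threshold (log2 fold change -0.93 ± 0.3 SE, limma adjusted p = 0.0518). SMZ, an AP2-type repressor, rose by 1.08.

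Genes of the stomatal lineage fell. TMM, a receptor-like protein that spaces stomata, was at 14.4, 15.3 and 17.4 FPKM in the WT libraries, against 0.933, 0.871 and 1.07 in the mutant (log2 fold change -3.09 ± 0.14 SE, limma adjusted p = 3.28e-05). SPCH, the basic helix-loop-helix factor that starts the lineage, was at 1.01, 0.565 and 1.12 FPKM in epcr1/2, where WT had 8.01, 6.95 and 12.9 (log2 fold change -2.41 ± 0.24 SE, limma adjusted p = 0.000435). EPF2, a signal peptide that limits entry into it, was at 5.36, 5.12 and 10.9 FPKM in WT and 0.24, 0.0886 and 0.575 FPKM in epcr1/2 (log2 fold change -2.59 ± 0.28 SE, limma adjusted p = 0.000651). The groups were separate for all of these, and replicate 3 gave differences at least as wide as replicates 1 and 2 (-3.15 against -3.06 for TMM and -2.71 against -2.25 for SPCH). MUTE (-1.92 ± 0.24) and FAMA (-1.95 ± 0.17), which act after SPCH, and SDD1 (-2.01 ± 0.14), a protease gene of stomatal density, also fell. GL1, which starts leaf hairs, was at 2.51, 2.64 and 3.51 FPKM in the WT libraries, against 0.049, 0 and 0.172 in the mutant. Among 18 genes of the leaf epidermis, stomata and cuticle 9 fell and 2 rose, the median being -1.22. Of the cuticle and wax members, CER4 fell (-0.9 ± 0.11), while CER1 (-0.16 ± 0.47), LACS2 (0.11 ± 0.19) and FDH (-0.27 ± 0.21) did not pass. The 2 higher members were CER3 (1.39 ± 0.35) and LTP1 (1.7 ± 0.45), and neither passed without WT replicate 1 or 2 or epcr1/2 replicate 1 or 2. In bulk seedling RNA fewer cells of a type and less RNA per cell cannot be told apart, here and for the root and leaf genes below.

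**Figure D3:**
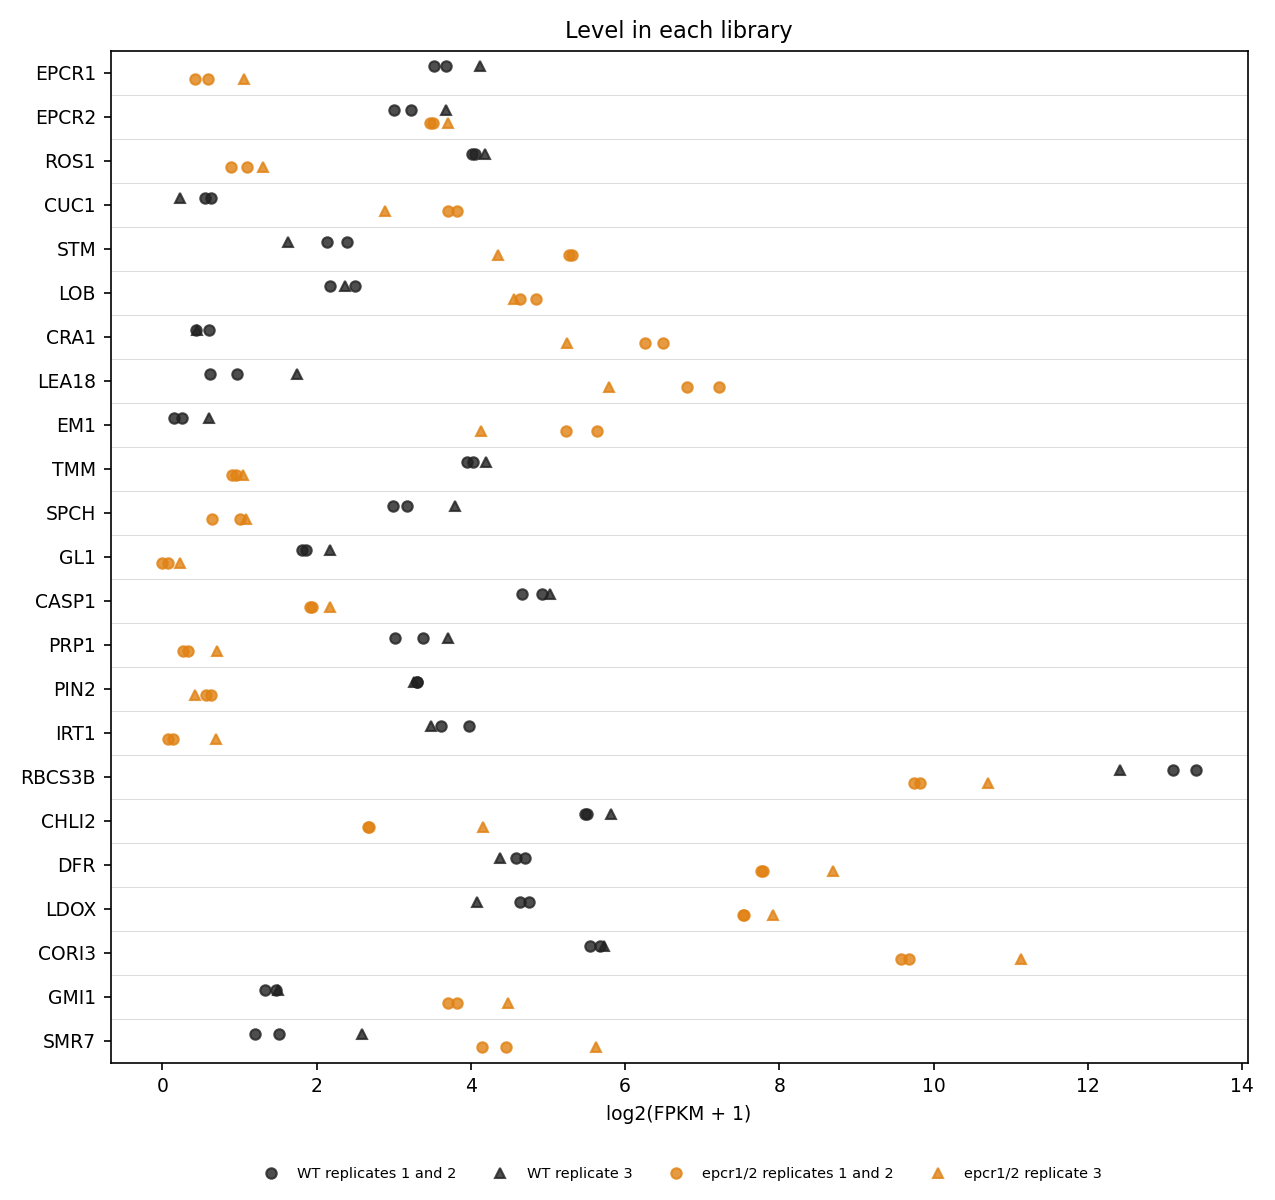
Level of 23 named genes in each library, as log2(FPKM + 1) on the x axis. Black is WT and orange epcr1/2, circles are replicates 1 and 2 and triangles replicate 3. Apart from EPCR2, the mutant and WT libraries of each gene stand apart, and the mutant triangles of CRA1, LEA18 and CHLI2 lie nearer to WT than the mutant circles.

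Nuclear genes for photosynthesis were lower. RBCS3B, for a small subunit of Rubisco, was at 906, 859 and 1665 FPKM in epcr1/2, where WT had 8833, 10832 and 5468 (log2 fold change -2.88 ± 0.42 SE, limma adjusted p = 0.00196), with the widest gap in replicates 1 and 2. RBCS2B was at 5018, 6262 and 3201 FPKM in WT and 458, 433 and 804 FPKM in epcr1/2 (log2 fold change -3.1 ± 0.39 SE, limma adjusted p = 0.00112), and fragments of such closely related copies cannot always be assigned. Of 14 Rubisco and Calvin cycle genes 9 fell and 0 rose, with a median of -1.69, with 14 lower under the replicate block and 4 in the averaged fit. Without WT replicate 1 or 2 or epcr1/2 replicate 1 the count was 5, and without epcr1/2 replicate 2 it was 4. LHCB1.1, a light-harvesting gene of photosystem II, was at 2802, 2964 and 4403 FPKM in the WT libraries, against 939.7, 822 and 1243 in the mutant (log2 fold change -1.75 ± 0.35 SE, limma adjusted p = 0.00816). Of 32 light harvesting and photosystem genes 19 fell and 0 rose, with a median of -1.36, and 29 fell with the block. The count was 7 without WT replicate 1 or 2 or epcr1/2 replicate 1, 12 without WT replicate 3, 6 without epcr1/2 replicate 2 and 4 in the averaged fit. The median difference of this list was -1.64 in replicates 1 and 2 and -0.96 in replicate 3. FBA5, an aldolase gene, was at 2.3, 1.51 and 8.64 FPKM in epcr1/2, where WT had 184, 209 and 205 (log2 fold change -5.54 ± 0.83 SE, limma adjusted p = 0.00238).

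Chlorophyll synthesis genes followed the same direction, with 10 lower, 0 higher and 8 not passing of 18, with 16 lower under the replicate block and 13 in the averaged fit. CHLI2, for a subunit of magnesium chelatase, was at 43.6, 44.5 and 55.2 FPKM in WT and 5.4, 5.36 and 16.9 FPKM in epcr1/2 (log2 fold change -2.43 ± 0.45 SE, limma adjusted p = 0.00564), and mutant replicate 3 stood between the other mutant libraries and WT. PORA, for a light-dependent protochlorophyllide reductase, was at 4.1, 3.73 and 6.6 FPKM in the WT libraries, against 0.317, 0.489 and 0.295 in the mutant (log2 fold change -2.06 ± 0.19 SE, limma adjusted p = 0.000325). GLK2, a transcription factor of chloroplast development, fell by 1.78, CHLM, a methyltransferase of the pathway, by 1.73 and GSA2 by 2.02. The 3 photosynthetic lists were a large share of all transcripts: light harvesting genes alone summed to 91804, 101645 and 102841 FPKM in WT replicates 1, 2 and 3 and 36963, 33428 and 50979 in epcr1/2, where all genes of a library summed to 783042 to 919799.

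Genes of root hairs were lower, and so were 5 of 9 tested endodermis and Casparian strip genes (55.6%), against 17.8% of all tested genes. PRP1, a proline-rich cell wall protein gene of root hairs, was at 0.262, 0.209 and 0.63 FPKM in epcr1/2, where WT had 7.1, 9.46 and 12 (log2 fold change -2.93 ± 0.23 SE, limma adjusted p = 0.000191), and EXPA18, an expansin of the same cells, at 8.13, 7.21 and 6.58 FPKM in WT and 0.526, 0.855 and 0.52 FPKM in epcr1/2 (log2 fold change -2.35 ± 0.32 SE, limma adjusted p = 0.00149). Of 15 root hair genes 14 fell, 0 rose and 1, RHD2, did not pass (-0.84 ± 0.29), with a median of -1.19 (-1.31 in replicates 1 and 2 and -1.54 in replicate 3). The fallers included the regulators RHD6 (-1.04 ± 0.14) and RSL4 (-1.16 ± 0.13) and also GL2 (-1.51 ± 0.21) and WER (-0.79 ± 0.19), which act in hairless cells. WER lost its call in 3 of the 16 alternative fits. With a filter at 2 FPKM 9 fell, because fewer members were tested. CASP1, which builds the Casparian strip of the endodermis, was at 24.4, 29.3 and 31.5 FPKM in the WT libraries, against 2.77, 2.84 and 3.52 in the mutant (log2 fold change -2.86 ± 0.18 SE, limma adjusted p = 7.81e-05). CASP2, CASP4 and PER64 fell too, by 1.64 to 2.47 on the log2 scale, while SCR (-0.27 ± 0.45), SHR (0.32 ± 0.36) and MYB36 (-0.24 ± 0.4), regulators of that tissue, did not pass. Of 14 suberin genes, also listed as root genes, 3 fell (21.4%) and 2 rose (14.3%), close to the background of 17.8% and 10.8%. Suberin genes summed to 107, 110 and 184 FPKM in the WT libraries and 179, 184 and 202 in epcr1/2. PIN2, the auxin carrier of root epidermis and cortex, was at 0.487, 0.544 and 0.341 FPKM in epcr1/2, where WT had 8.9, 8.87 and 8.59 (log2 fold change -2.75 ± 0.13 SE, limma adjusted p = 3.38e-05).

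**Figure D4:**
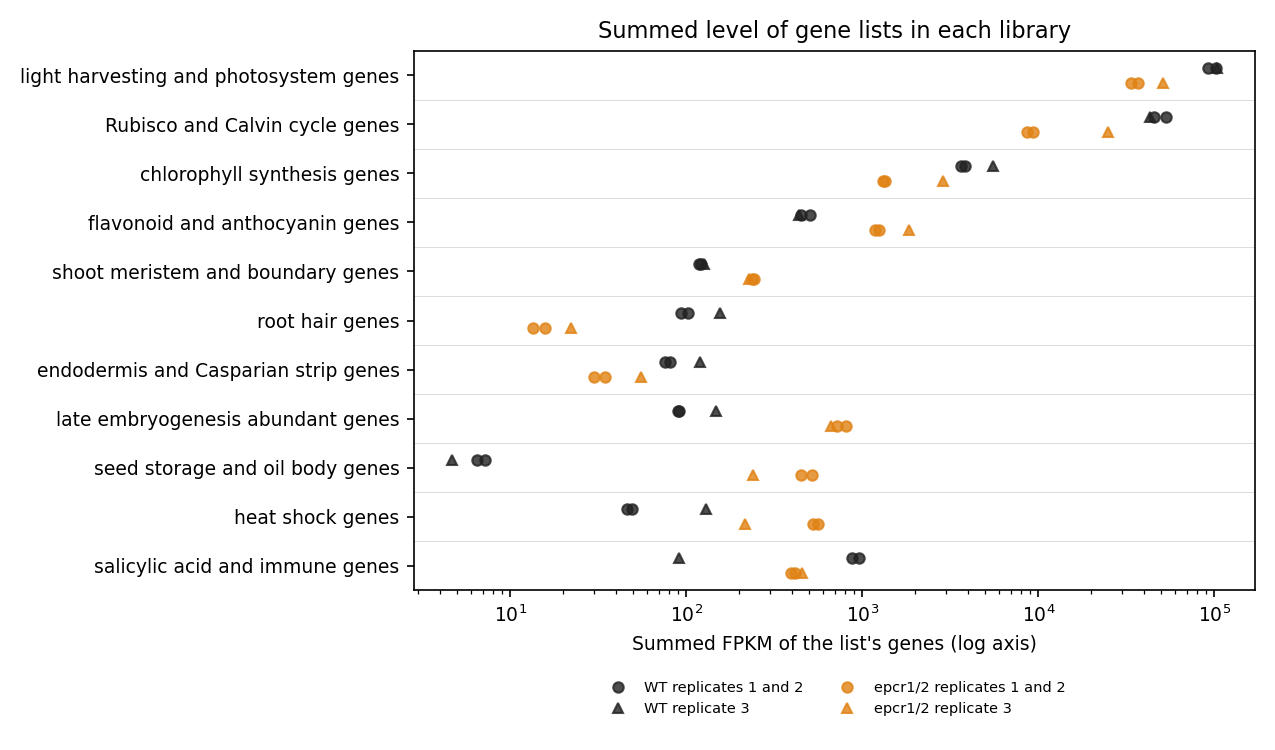
Summed FPKM of all listed genes for 11 gene lists in each library, on a log axis. Black is WT and orange epcr1/2, circles are replicates 1 and 2 and triangles replicate 3. Root hair genes summed to 93.5, 102 and 155 FPKM in the WT libraries, against 15.7, 13.5 and 22 in those of epcr1/2, and in salicylic acid and immune genes the WT triangle lies below the mutant libraries while the WT circles lie above them.

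Iron genes included members that fell and members that rose. IRT1, the main iron uptake transporter, was at 11.2, 14.8 and 10.2 FPKM in WT and 0.0529, 0.105 and 0.617 FPKM in epcr1/2, while FER1, for the iron store ferritin, was at 67.5, 64.3 and 123 FPKM in the WT libraries, against 435, 409 and 291 in the mutant. The groups did not overlap for either (log2 fold change -3.39 ± 0.41 SE, limma adjusted p = 0.000923 and log2 fold change 2.19 ± 0.31 SE, limma adjusted p = 0.00179). Of 21 iron genes 6 fell (28.6%), 3 rose (14.3%) and 12 did not pass, against 17.8% lower and 10.8% higher of all tested genes. In this list 11 fell with the replicate block, 4 in the averaged fit and 3 without epcr1/2 replicate 1 or 2. BHLH101, an iron deficiency regulator, was at or below 0.064 FPKM in epcr1/2 and at 3.04 to 4.66 in WT (log2 fold change -2.16 ± 0.42 SE, limma adjusted p = 0.00729). The 21 nitrate, phosphate and sulfate genes had 3 higher and 3 lower (14.3% each), close to the background. Among them AMT1;3, an ammonium transporter gene, fell by 2.77 and PHT1;1, a phosphate transporter gene, by 1.73, while NRT2.1, for high-affinity nitrate uptake, rose by 1.59. Of 17 aquaporins, the water channel genes, 9 rose and 3 fell, and 4 rose in the averaged fit. GAMMA-TIP of the tonoplast was at 2806, 2509 and 3179 FPKM in epcr1/2, where WT had 403, 448 and 744 and PIP2;5 of the plasma membrane at 12.5, 12 and 17.2 FPKM in WT and 132, 118 and 79.4 FPKM in epcr1/2 (log2 fold change 2.46 ± 0.3 SE, limma adjusted p = 0.000937 and log2 fold change 2.88 ± 0.22 SE, limma adjusted p = 0.000172). PIP2;4 fell by 1.19. TIP2;3 (-1.17 ± 0.33) and TIP4;1 (-1.9 ± 0.51) also fell, but both lost the call without WT replicate 1, 2 or 3 or epcr1/2 replicate 2 or 3, which left 1 lower aquaporin, and after centring or quantile normalization.

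Anthocyanin genes rose, with a median difference over the flavonoid list of 1.89 in replicate 3 and 1.24 in replicates 1 and 2. DFR, which commits flavonoids to anthocyanin, was at 25.1, 23.1 and 19.8 FPKM in the WT libraries, against 221, 215 and 414 in the mutant (log2 fold change 3.52 ± 0.26 SE, limma adjusted p = 0.000152). LDOX, the next enzyme, was at 186, 183 and 241 FPKM in epcr1/2, where WT had 23.9, 25.9 and 15.9 (log2 fold change 3.18 ± 0.24 SE, limma adjusted p = 0.000172). UF3GT, a sugar transferase of the last steps, rose by 3.17, TT19, needed to bring anthocyanin to the vacuole, by 2.75, and TT8, a regulator of these genes, by 2.33. The difference was 4.32 in replicate 3 and 3.13 in replicates 1 and 2 for DFR, and 3.84 and 2.84 for LDOX. The early enzymes TT4 (1.29 ± 0.26), TT5 (1.53 ± 0.26) and TT7 (1.91 ± 0.29) rose as well. Of 17 flavonoid genes 10 rose, 3 fell and 4 did not pass, and the lower members were regulators: MYBL2, a repressor of the pathway (-2.02 ± 0.5), MYB111 (-1.33 ± 0.38) and GL3 (-0.69 ± 0.14). Without epcr1/2 replicate 2, GL3 was the 1 that fell, and 6 genes fell with the block and 2 in the averaged fit. MYB111 lost its call in 6 of 16 fits, and GL3 after centring. Flavonol synthase FLS1 was at 68.1, 65.5 and 24.7 FPKM in WT and 17.7, 19.2 and 18.3 FPKM in epcr1/2 (log2 fold change -1.34 ± 0.65 SE, limma adjusted p = 0.166), without a call.

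Phenylpropanoid and lignin genes (11 higher, 0 lower of 19, median 1.08) and glucosinolate genes (11 higher, 1 lower of 21, median 1.0) were also higher in many members, each with 7 higher without WT replicate 1 or WT replicate 2. CCOAOMT1, a methyltransferase of lignin precursors, was at 425, 432 and 354 FPKM in the WT libraries, against 1443, 1367 and 1163 in the mutant (log2 fold change 1.71 ± 0.29 SE, limma adjusted p = 0.00381), and CAD5, the last step to the lignin alcohols, rose by 2.69. CYP83B1, which channels tryptophan-derived oximes into indole glucosinolates, was at 344, 331 and 532 FPKM in epcr1/2, where WT had 95.5, 102 and 98.5 (log2 fold change 1.98 ± 0.22 SE, limma adjusted p = 0.000682). SOT16, which adds the sulfate, rose by 1.95, and BGLU34, annotated as a beta glucosidase, fell by 2.72.

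Jasmonate genes rose, with 13 higher and 0 lower of 29 (median 1.28), 21 higher and 1 lower with the replicate block, 11 and 0 in the averaged fit, and 8 higher without epcr1/2 replicate 1 or without epcr1/2 replicate 2. CORI3, a coronatine-induced transaminase gene, was at 45.8, 49.9 and 51.9 FPKM in WT and 763, 819 and 2244 FPKM in epcr1/2 (log2 fold change 4.48 ± 0.45 SE, limma adjusted p = 0.000473), with replicate 3 the highest. JAZ5, for a repressor of the response, was at 0.801, 1.39 and 2.09 FPKM in the WT libraries, against 18.8, 18.6 and 9.38 in the mutant (log2 fold change 2.75 ± 0.33 SE, limma adjusted p = 0.000952). AOC3, a synthesis gene, rose by 2.11, LOX2, which starts the pathway in leaves, by 1.76 and JAZ10 by 2.72. Receptor COI1 (-0.37 ± 0.13) and the regulator MYC2 (0.75 ± 0.33) did not pass. PDF1.2, a defensin gene that jasmonate and ethylene raise, was at 1.63, 1.62 and 1.92 FPKM in epcr1/2, where WT had 85.3, 102 and 0.213, below WT in replicates 1 and 2 and above it in replicate 3, without a call (log2 fold change -3.02 ± 1.53 SE, limma adjusted p = 0.182).

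Heat shock genes were higher, with a median difference of 3.03 in replicates 1 and 2 and 0.92 in replicate 3. HSP18.2, a small chaperone gene, was at 4.42, 3.4 and 5.95 FPKM in WT and 41.9, 38.2 and 34.1 FPKM in epcr1/2 (log2 fold change 2.83 ± 0.26 SE, limma adjusted p = 0.000341). HSP70 was at 16.2, 15.3 and 43.7 FPKM in the WT libraries, against 333, 308 and 82.1 in the mutant, and its WT replicate 3 stood well above the other WT libraries. It lost its call in 5 of 16 fits. Of 10 genes 7 rose, 0 fell and 3 did not pass, and 4 rose without epcr1/2 replicate 1 or 2 or in the averaged fit. These 4 were HSP18.2, HSP17.4, HSP17.6II and HSP23.6-MITO.

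Salicylic acid and immune genes had no common direction, as 12 of 19 had opposite signs in replicate 3 and in replicates 1 and 2. Their median difference was -0.58 in replicates 1 and 2 and 1.08 in replicate 3. Only 3 rose and 0 fell in the limma fit, and 1 rose without WT replicate 1, WT replicate 3 or epcr1/2 replicate 1 or 2. PR1, the marker of this response, was at 196, 181 and 110.5 FPKM in epcr1/2, where WT had 592, 666 and 1.67 (log2 fold change 0.64 ± 2.08 SE, limma adjusted p = 0.864). WT replicate 3 held far less PR1 than any other of these libraries. Among 58 WRKY factors, a family of defence and stress regulators, 11 rose and 4 fell, with 20 and 9 under the block and 10 and 3 in the averaged fit. WRKY48 was at 2.64, 3.01 and 4.03 FPKM in WT and 28.7, 29.9 and 39.4 FPKM in epcr1/2 (log2 fold change 2.99 ± 0.21 SE, limma adjusted p = 0.000141) and WRKY18 at 11.2, 10.7 and 3.94 FPKM in the WT libraries, against 61.3, 65.3 and 72.9 in the mutant (log2 fold change 2.92 ± 0.33 SE, limma adjusted p = 0.000741). Among 22 genes of abscisic acid, cold and drought responses 6 were higher and 1 lower, and the averaged fit left 1 and 0. Without WT replicate 1 or 2 or epcr1/2 replicate 1 or 2, 3 were higher and 0 lower. ERD10, a dehydrin gene, rose by 1.77.

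Part of the DNA damage response was higher. GMI1, which answers DNA breaks, was at 12, 13.2 and 21.3 FPKM in epcr1/2, where WT had 1.78, 1.51 and 1.84 (log2 fold change 2.56 ± 0.3 SE, limma adjusted p = 0.000866), and PARP2, a poly(ADP-ribose) polymerase gene, at 4.2, 4 and 6.79 FPKM in WT and 15.3, 17.5 and 22.9 FPKM in epcr1/2 (log2 fold change 1.72 ± 0.25 SE, limma adjusted p = 0.00221). RAD17 rose by 1.45 and XRI1 by 0.98. Of 13 genes 6 rose, 1 fell and 6 did not pass, and ATM, a kinase gene that senses breaks (-0.53 ± 0.25), and SOG1, the regulator it acts on (-0.48 ± 0.29), were among the last. SMR7, a SIAMESE-related inhibitor of the cell cycle known to respond to DNA damage, was at 1.86, 1.3 and 5.03 FPKM in the WT libraries, against 21, 16.7 and 48.5 in the mutant (log2 fold change 2.98 ± 0.5 SE, limma adjusted p = 0.00376). SMR5 was listed at 0 in WT replicates 1 and 2 and at 8.35 FPKM in WT replicate 3, and was at 154, 106 and 38.9 FPKM in epcr1/2. It lost its call in the averaged fit. SMR4 rose by 1.71, while KRP7 fell by 1.22 and SIM by 0.63. CYCB1;1, a mitotic cyclin gene also induced by DNA damage, rose by 1.24.

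Among hormone genes, GA2OX2, which inactivates gibberellin, was at 12.9, 13.1 and 12.3 FPKM in epcr1/2, where WT had 1.54, 1.7 and 1.35 (log2 fold change 2.44 ± 0.26 SE, limma adjusted p = 0.000601), and GA2, for an early synthesis step, fell by 1.1. In all, 4 of 17 gibberellin genes fell and 2 rose, with 10 lower under the block and 4 in the averaged fit, and the shares of 23.5% and 11.8% are close to the background. Of the cytokinin response regulator genes, ARR4 fell by 1.34, ARR16 by 1.52 and ARR3 by 1.42, while ARR5 (-0.26 ± 0.55), ARR7 (-0.75 ± 0.64) and ARR15 (-1.34 ± 0.46) did not pass. CRF6 rose by 2.2. The cytokinin list had 4 lower (25.0%) and 2 higher (12.5%) of 16, against 17.8% and 10.8% of all tested genes. The block gave 9 lower and the averaged fit 8. GH3.3, which conjugates auxin, rose by 2.45, and IAA14, an auxin response repressor of lateral roots, fell by 1.51. Of 22 auxin response genes 3 fell (13.6%) and 2 rose (9.09%), both below the background. SAUR genes, small auxin-induced genes of growing tissue, had 3 lower of 15 (20.0%), close to the background of 17.8%. For SAUR genes the block gave 12 lower, the averaged fit 8, and leaving out 1 library 0 to 5.

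Cell wall loosening genes were lower in some members and higher in others. Of 24 expansins 10 fell and 6 rose: EXPA8 was at 78.3, 64.6 and 126 FPKM in WT and 1.58, 1.54 and 8.99 FPKM in epcr1/2, and EXLA1 at 7.84, 8.98 and 8.47 FPKM in the WT libraries, against 98.8, 95.2 and 84 in the mutant (log2 fold change -4.44 ± 0.92 SE, limma adjusted p = 0.00914 and log2 fold change 3.31 ± 0.17 SE, limma adjusted p = 4.16e-05). Of 27 xyloglucan endotransglucosylase genes 8 fell and 5 rose, and XTR6 was at 76.3, 77.2 and 150.5 FPKM in epcr1/2, where WT had 4.45, 4.23 and 5.95 (log2 fold change 4.06 ± 0.27 SE, limma adjusted p = 0.000102) where XTH12 fell by 2.42. None of 14 cellulose synthase genes passed by limma without the block, where 3 were higher and 0 lower at an unadjusted p under 0.05, while 4 were higher and 3 lower with it, and 1 and 0 in the averaged fit.

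Of 4 DNA demethylase genes 2 fell, ROS1 and DML2, and 2 did not pass, DME (-0.08 ± 0.22) and DML3 (-0.52 ± 0.45). ROS1, the main DNA demethylase gene of leaves, was at 15.6, 15.2 and 17.2 FPKM in WT and 0.859, 1.14 and 1.47 FPKM in epcr1/2 (log2 fold change -2.99 ± 0.15 SE, limma adjusted p = 3.96e-05), with the mutant libraries close to each other. DML2, another demethylase gene, fell by 1.36. DRM1, a de novo methyltransferase gene, was below 0.05 FPKM in WT and at 2, 2.01 and 1.43 FPKM in epcr1/2 (log2 fold change 1.46 ± 0.15 SE, limma adjusted p = 0.000546). NRPE1, for the large subunit of RNA polymerase V, was at 4.04, 3.15 and 3.79 FPKM in the WT libraries, against 0.763, 1.06 and 0.929 in the mutant (log2 fold change -1.28 ± 0.18 SE, limma adjusted p = 0.00183), and its partners DRD1 and DMS3 fell by 1.05 and 0.81. Among 28 methylation genes 6 were lower (21.4%) and 4 higher (14.3%), close to the background of 17.8% and 10.8%. Without epcr1/2 replicate 1 or 2 or without WT replicate 1, 3 were lower and 1 higher. The block gave 10 lower, and the averaged fit 3 lower and 1 higher. Of 15 histone deacetylase genes 4 fell (26.7%) and 2 rose (13.3%), against 17.8% and 10.8% of all tested genes. The averaged fit left 2 lower and 2 higher. Among those that fell, HDA14 was at 3.92, 4.36 and 10.2 FPKM in epcr1/2, where WT had 27, 21.4 and 22.9 (log2 fold change -1.89 ± 0.37 SE, limma adjusted p = 0.00744). The 2 that rose were HDA18 (0.86 ± 0.16) and HDA8 (0.7 ± 0.15). None of 13 Polycomb genes passed by limma without the block, where 1 were higher and 0 lower at an unadjusted p under 0.05, while 3 were higher and 4 lower with it, and 0 and 0 in the averaged fit. CLF, its histone methyltransferase gene, was at 8.21, 5.86 and 10.1 FPKM in WT and 5.03, 5.21 and 5.74 FPKM in epcr1/2 (log2 fold change -0.49 ± 0.23 SE, limma adjusted p = 0.146).

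The widest single changes lay partly outside these lists. LTP2, for a lipid transfer protein of the cuticle, was at 121, 132 and 118 FPKM in the WT libraries, against 6443, 5112 and 2316 in the mutant (log2 fold change 5.09 ± 0.48 SE, limma adjusted p = 0.000371). CYS2, a cysteine protease inhibitor gene, rose by 5.26. AT1G20070, of unknown function, was at 283, 311 and 316 FPKM in epcr1/2, where WT had 7.01, 6.74 and 11.9 (log2 fold change 5.03 ± 0.24 SE, limma adjusted p = 3.38e-05), and AT1G68250, also uncharacterised, was below 0.5 FPKM in WT and at 54.9, 54.2 and 46.6 FPKM in epcr1/2. On the other side GER3, a germin of the cell wall, was at 936, 1201 and 334 FPKM in WT and 6.09, 6.48 and 17.3 FPKM in epcr1/2 (log2 fold change -6.19 ± 0.73 SE, limma adjusted p = 0.000881), and WT replicate 3 held the lowest of the WT values. AGP30, an arabinogalactan protein gene known from roots, was at 18.5, 23 and 54 FPKM in the WT libraries, against 0.0374, 0.217 and 0.156 in the mutant (log2 fold change -4.7 ± 0.46 SE, limma adjusted p = 0.000413). AT3G15450, annotated as aluminium induced, was at 5.76, 5.57 and 9.12 FPKM in epcr1/2, where WT had 223, 246 and 132 (log2 fold change -4.67 ± 0.34 SE, limma adjusted p = 0.000159).

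Runs of 3 or more neighbouring tested genes that all passed in 1 direction by 2-fold or more were counted. There were 40 such runs of lower genes, which held 138 genes, and 11 runs of higher genes, which held 35. By the same 2-fold measure, 10.3% of all tested genes were lower and 6.55% higher. With shares of that size some runs arise without any link between neighbours, and the number to expect was not worked out. The longest lower runs had 5 genes. One was a tandem group of lipid transfer family genes on chromosome 4, AT4G22485 to AT4G22517, at -5.45 to -3.88 (log2). AT4G22485 was at 119.8, 128 and 334 FPKM in WT and 1.81, 1.95 and 6.47 FPKM in epcr1/2, and reads may be split between near-identical neighbours. Another, on chromosome 5, joined AT5G46890 and AT5G46900 of that family to the homeobox gene HB-7, and AT5G46900 was at 32.7, 35.7 and 46.8 FPKM in the WT libraries, against 0.0699, 0 and 0.0667 in the mutant (log2 fold change -5.22 ± 0.35 SE, limma adjusted p = 0.000102). The longest higher runs had 4 genes. SK8, SK7, SK9 and SK10, a tandem of SKP1-like ubiquitin ligase subunits on chromosome 3, rose by 1.89 to 5.08, and SK9 was at 72.1, 84.8 and 15.1 FPKM in epcr1/2, where WT had 0.726, 0.327 and 0.129 (log2 fold change 5.08 ± 0.58 SE, limma adjusted p = 0.000746). SK7 and SK8 lost the call without replicate 1 or 2 of either genotype and in the averaged fit, and SK7 also without WT replicate 3. ABCC3, ABCC6, ABCC7 and SERAT2;2 formed the other, and ABCC3, a vacuolar transporter gene, was at 19.5, 19.7 and 12.8 FPKM in WT and 139, 144 and 163 FPKM in epcr1/2 (log2 fold change 3.05 ± 0.19 SE, limma adjusted p = 7.81e-05). AT2G18193, an ATPase gene in a higher run of 3 on chromosome 2, was at 4.74, 4.22 and 2.91 FPKM in the WT libraries, against 125, 116 and 145 in the mutant (log2 fold change 4.72 ± 0.18 SE, limma adjusted p = 1.96e-05).

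Set directly against arid2/3/4 in the same fit, 2218 genes differed (10.5%), 1010 higher and 1208 lower in epcr1/2. This count was 49 in the averaged fit, which also holds a block, 834 without epcr1/2 replicate 2, 843 without epcr1/2 replicate 1, and 870 and 1007 when arid2/3/4 replicate 1 or 2 was left out. GAMMA-TIP was at 187, 185 and 266 FPKM in arid2/3/4 and stood 3.74 higher (log2) in epcr1/2 (limma adjusted p = 0.00068, and 0.0497 in the averaged fit). AT1G20070 was at 11.1, 17.9 and 15.9 FPKM in arid2/3/4, a difference of 4.27 (limma adjusted p = 0.000133, and 0.0448 averaged). STM was at 7.82, 6.74 and 8.14 FPKM in arid2/3/4, a difference of 1.89 (limma adjusted p = 0.00827), which did not pass in the averaged fit (0.0762). BHLH101 was lower in epcr1/2 by 3.32 (limma adjusted p = 0.00366, and 0.067 averaged). ROS1 was at 1.24, 1.36 and 1.02 FPKM in arid2/3/4, with a difference of -0.04 ± 0.15 (SE, limma adjusted p = 0.928), and CRA1 differed by 0.58 ± 1.09 (limma adjusted p = 0.821).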

How the data were processed

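The deposited table holds 28117 genes with values that were taken as FPKM made by the authors, although its header names no unit. The 278 organelle genes were listed at 0 and left out. STAR 2.5.2b, Cuffdiff and TAIR10 are named, per the submitters' processing notes. Whether strand was used is not given in the sources used here. Depth was approximated from the smallest steps, and precision is the spread between libraries.

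log2(FPKM + 1) was fitted with limma 3.58.1 (R 4.3.3), a mean per genotype over all 9 libraries (6 residual degrees of freedom), with Benjamini-Hochberg adjustment over 21168 genes and a threshold of 0.05. Fold changes are on this scale, which understates changes of low genes. The code was tested on simulated data with independent noise in each library. That simulation lacks the likeness of replicates 1 and 2, so it does not show whether the p-values hold under it. Same-numbered WT and epcr1/2 libraries deviated together (r of 0.65, 0.63 and 0.73), and numbers 1 and 2 crossed did so as well (0.66), so the replicate number was fitted as a block in an alternative. Others were another pseudocount, filter, scaling, weights, averaging of replicates 1 and 2 together with a block of that mean against replicate 3, and leaving out each library.

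The members and lists were chosen with earlier results of these data known. Named genes were EPCR1 and EPCR2, the 15 widest changes each way among called genes whose libraries do not overlap, up to 4 called members per list, up to 5 genes each way with opposite signs in replicate 3, genes of the longest neighbour runs and the 5 called genes each way with the highest levels. The text shows a selection that leans to genes whose calls held under the alternatives, and other list members were chosen after their values were seen. Of 727 list entries, 38 were left out because the RefSeq annotation does not give their symbol to that locus, among them the ARID and PWWP genes.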

Additional observations from a re-analysis of the deposited data

Results flagged for a closer look

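In 85 genes replicates 1 and 2 differed between WT and epcr1/2 by a log2 value of 1 or more one way and replicate 3 by as much the opposite way. This difference was not tested. Given here are 9 of those with the widest gap each way that reached 5 FPKM in a library. AT4G27450 was higher by 1.91 (log2) in replicates 1 and 2 and stood at -3.39 in replicate 3. AT3G29970 was at 3.36 and -1.91, AT5G10040 at 2.75 and -2.47, and AT1G62510 at 1.7 and -3.35. The other 5 went the other way. PCC1 was at -7.14 in replicates 1 and 2 and 1.79 in replicate 3, and AT3G22235 at -6.61 and 1.59. PR1, the salicylic acid marker, was at -1.74 and 5.38. The defensin genes PDF1.3 and PDF1.2 were at -4.62 and 2.14 and at -5.16 and 1.27.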

How the results depend on the processing

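Against 6039 changed genes (2277 higher, 3762 lower), array weights gave 14648 (5731 and 8917), replicates 1 and 2 only gave 13755 (5529 and 8226), the replicate block gave 10832 (4088 and 6744) and a 2-fold minimum gave 3563 (1386 and 2177). Leaving out 1 library gave 3708 to 6336 changed, 1445 to 2242 higher and 2259 to 4094 lower. The fit that averages replicates 1 and 2 and blocks their mean against replicate 3 (4814), only the groups compared (6037), a pseudocount of 0.1 (6140), no filter (6157) and a filter at 2 FPKM (5229) stayed within 1.5 times, although in the first of these 1413 of the 2277 higher and 2568 of the 3762 lower genes passed. The 2218 genes between epcr1/2 and arid2/3/4, whose alternatives were chosen after seeing the data, became 12518 with array weights, 1477 with only the groups compared, 6039 with the replicate block, 49 with that averaging and block, 11396 with replicates 1 and 2 only and 1111 at 2-fold, and 834 to 3284 on leaving out 1 library. Of 210 named genes called, 143 were called in every one of the 16 alternatives whose filter kept the gene, and averaging with the batch block lost 48. PR1 turned to -1.56 with array weights and -1.74 with replicates 1 and 2 only, and AT1G02490 to 2.33 with array weights. The cause was not tested. The approximate depth limits genes near 0.5 FPKM most.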
